A study of Mus musculus with 77 samples.

Results

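Fev, Dmrta2, Cryba2, Entpd2 and Fhdc1 are 5 of the 34324 genes of the RefSeq table for mouse (21627 protein-coding and 12697 long non-coding). They were chosen because strong H2AK119Ub peaks touched them after 24 h of CpG and not in unstimulated cells, so their H2AK119Ub at the 2 times is described here and not tested. The rule names no genotype and no other mark, and does not use the position of the peaks. Strength was judged by total signal, which grows with the width of a peak. The widths at the 2 times are therefore not independent of the choice. A gene was taken as its RefSeq body with 2 kb on either side, on the mm10 assembly. The bodies are chr1:74881501-74885473 for Fev, chr4:109977989-109983691 for Dmrta2, chr1:74889934-74898842 for Cryba2, chr2:25395874-25401323 for Entpd2 and chr3:84442191-84480439 for Fhdc1.

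Splenic CD23+ B cells of female mice, which are mostly follicular B cells, were profiled by CUT&RUN, a method in which an antibody directs a nuclease to the nucleosomes that carry a histone mark. In the mb1-cre system, cells of WT (mb1-cre+) and Xist fl/fl (mb1-cre+) mice were compared, so that both genotypes carry a Cre that is active in the B lineage from its early stages. In the TAT-Cre system, cells came from WT and Xist fl/fl mice and received 80 µg of a cell-penetrating Cre protein in culture, left on for 45 min, ahead of stimulation. Xist is the RNA that silences the inactive X chromosome. Libraries were made from resting cells (0 h) and from cells cultured for 24 h in 1 µM CpG, an oligonucleotide that activates Toll-like receptor 9. TAT-Cre cells at 0 h had not yet met the enzyme, and at 24 h the effects of TAT-Cre and of CpG cannot be told apart in that system. H2AK119Ub and H3K27ac had 24 libraries each, 3 per group, and H3K27me3 had 29, with 4 or 5 per mb1-cre group and 3 per TAT-Cre group. The labels number the replicates as biological without saying whether each came from its own animal, so each p-value reflects library-to-library spread, which may be technical. One H3K27me3 library, replicate 5 of mb1-cre Xist fl/fl at 0 h, has a naive title and a stimulated treatment entry, and was kept at 0 h.

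Each library is represented by a deposited list of peaks, with no read depth. The lists held 2004 to 40688 peaks for H2AK119Ub, 1955 to 19074 for H3K27me3 and 1336 to 10393 for H3K27ac. Of the 12 H2AK119Ub lists at 0 h, 4 held only 2004 to 2804 peaks, while the lists at 24 h held 9334 to 37328. Peaks were therefore ranked by total signal within their own list (rank 1 is the strongest), and a strong peak is one whose rank does not exceed the shortest list of that mark, which has 2004 peaks for H2AK119Ub, 1955 for H3K27me3 and 1336 for H3K27ac. Lists cut there are called trimmed below. As a check of the cell type, H3K27ac peaks touched 10 of 10 follicular B cell genes in each of the 24 lists, against 0 to 2 of 6 T cell, 0 to 1 of 6 myeloid, 0 to 1 of 3 NK cell and 0 of 4 erythroid genes.

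H2AK119Ub is placed on histone H2A by the E3 ligases of Polycomb repressive complex 1, and H3K27me3 is placed by the methyltransferase of Polycomb repressive complex 2. The complexes bind CG-rich promoters of developmental genes that a cell does not use, and each can recruit the other through its mark. H3K27ac marks active promoters and enhancers and excludes methylation of the same residue. Fev is an ETS transcription factor of serotonergic neurons. Dmrta2 is a DM-domain transcription factor of the developing brain. Cryba2 is a structural beta-crystallin of the lens, Entpd2 is an ecto-enzyme that hydrolyses extracellular ATP, and Fhdc1 is a formin that acts on actin and microtubules.

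The start sites of these genes lay under the H2AK119Ub peaks of 24 h, so the 250 bases upstream of each are shown, with CG dinucleotides in capitals. The sequences are from RefSeq on GRCm38.p6 and run 5′ to 3′ on the strand of the gene. They cover chr1:74885409-74885658 (minus strand) for Fev, chr4:109977775-109978024 (plus) for Dmrta2, chr1:74893144-74893393 (minus) for Cryba2, chr2:25395624-25395873 (plus) for Entpd2 and chr3:84480440-84480689 (minus) for the outer of the 2 start sites of Fhdc1. Start sites are those of the RefSeq promoter table, and the site of Cryba2 lies inside its annotated body, kilobases from the 5′ end, so its window is intragenic.
Fev: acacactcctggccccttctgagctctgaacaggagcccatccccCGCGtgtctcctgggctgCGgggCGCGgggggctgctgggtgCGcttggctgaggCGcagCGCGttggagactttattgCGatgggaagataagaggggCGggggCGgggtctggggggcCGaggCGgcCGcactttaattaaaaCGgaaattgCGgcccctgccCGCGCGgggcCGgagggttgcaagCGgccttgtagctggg
Dmrta2: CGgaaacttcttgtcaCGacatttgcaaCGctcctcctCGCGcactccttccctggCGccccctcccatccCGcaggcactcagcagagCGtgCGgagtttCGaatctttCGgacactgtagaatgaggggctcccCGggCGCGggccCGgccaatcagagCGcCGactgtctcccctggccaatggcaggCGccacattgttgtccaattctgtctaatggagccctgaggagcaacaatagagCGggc
Cryba2: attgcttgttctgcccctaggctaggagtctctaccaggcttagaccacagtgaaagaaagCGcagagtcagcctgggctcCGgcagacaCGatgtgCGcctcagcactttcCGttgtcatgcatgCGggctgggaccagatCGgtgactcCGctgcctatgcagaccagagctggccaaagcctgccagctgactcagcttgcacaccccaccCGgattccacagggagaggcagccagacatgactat
Entpd2: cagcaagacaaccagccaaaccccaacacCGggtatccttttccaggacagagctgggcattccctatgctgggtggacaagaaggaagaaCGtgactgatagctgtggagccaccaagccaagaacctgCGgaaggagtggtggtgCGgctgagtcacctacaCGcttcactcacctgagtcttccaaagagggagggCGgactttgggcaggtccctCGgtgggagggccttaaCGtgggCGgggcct
Fhdc1: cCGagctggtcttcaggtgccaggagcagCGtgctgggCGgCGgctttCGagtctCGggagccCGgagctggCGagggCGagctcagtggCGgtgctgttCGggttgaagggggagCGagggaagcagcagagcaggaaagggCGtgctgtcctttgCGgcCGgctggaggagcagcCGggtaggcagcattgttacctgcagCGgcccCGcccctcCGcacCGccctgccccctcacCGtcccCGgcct
The motif searched was CG, which reads the same on both strands, and 92.1% of the 32851 promoter windows of this length hold it at least once. Fev and Fhdc1 held 22 each and Dmrta2 held 19, above the upper quartile of all windows, which is 16. Cryba2 and Entpd2 held 9 each, nearer the median of 6. The promoters of the 5 genes therefore fall into a CG-dense group of 3 and a group of 2 with an intermediate count.

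H2AK119Ub at Fev was weak or undetected at 0 h and strong at 24 h. At 24 h the rank of its strongest peak was 324, 1353 and 378 in the mb1-cre WT libraries (replicates 1 to 3) and 125, 225 and 365 in the mb1-cre Xist fl/fl libraries. Among TAT-Cre libraries it was 1104, 885 and 1299 in WT and 143, 235 and 282 in Xist fl/fl. At 0 h, 7 of 12 lists held any peak at Fev, at ranks from 8002 to 27383. No rank of one time reached those of the other.

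Dmrta2 had strong H2AK119Ub in each list of 24 h. Its mb1-cre ranks were 296, 188 and 278 in WT and 206, 242 and 372 in Xist fl/fl. The TAT-Cre ranks were 284, 216 and 253 in WT and 190, 555 and 199 in Xist fl/fl, where replicate 2 had 2 peaks at the gene and the other 11 lists of 24 h had 1. Peaks at 0 h were found in 8 of 12 lists, at ranks 2536 to 10250. The weakest rank at 24 h and the strongest at 0 h were thus 555 and 2536.

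At Cryba2 the ranks at 24 h were 324, 732 and 378 in mb1-cre WT and 125, 225 and 365 in mb1-cre Xist fl/fl. They were 1431, 885 and 465 in TAT-Cre WT and 143, 235 and 282 in TAT-Cre Xist fl/fl. A peak at 0 h was present in 7 of 12 lists, and the strongest of these, in TAT-Cre WT replicate 3, had rank 2554. Many of these values repeat those of Fev because the genes are neighbours and often lay under the same peak.

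Entpd2 had ranks of 653, 413 and 1770 at 24 h in mb1-cre WT and of 325, 775 and 617 in mb1-cre Xist fl/fl. With TAT-Cre the ranks were 672, 532 and 862 in WT and 384, 424 and 606 in Xist fl/fl. Only mb1-cre WT replicate 3 came near the limit of 2004. At 0 h a peak was found in 7 of 12 lists, and the strongest had rank 2436, in mb1-cre WT replicate 2, the longest list.

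Fhdc1 had the weakest strong peak and the narrowest margin. Its ranks at 24 h were 1104, 1257 and 1803 in mb1-cre WT, and 1648, 1170 and 1860 in mb1-cre Xist fl/fl. They were 1311, 1109 and 1441 in TAT-Cre WT, and 1074, 1115 and 1796 in TAT-Cre Xist fl/fl. At 0 h it had a peak in 8 of 12 lists at ranks from 2106 to 4389, so the weakest peak at 24 h (1860) and the strongest at 0 h (2106) lay close on either side of the limit. Fhdc1 is therefore better described as moving up in rank than as gaining a peak. A deposited peak at 0 h was not particular to it, since Dmrta2 had one in 8 of 12 lists and Fev, Cryba2 and Entpd2 in 7 of 12.

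**Figure D1:**
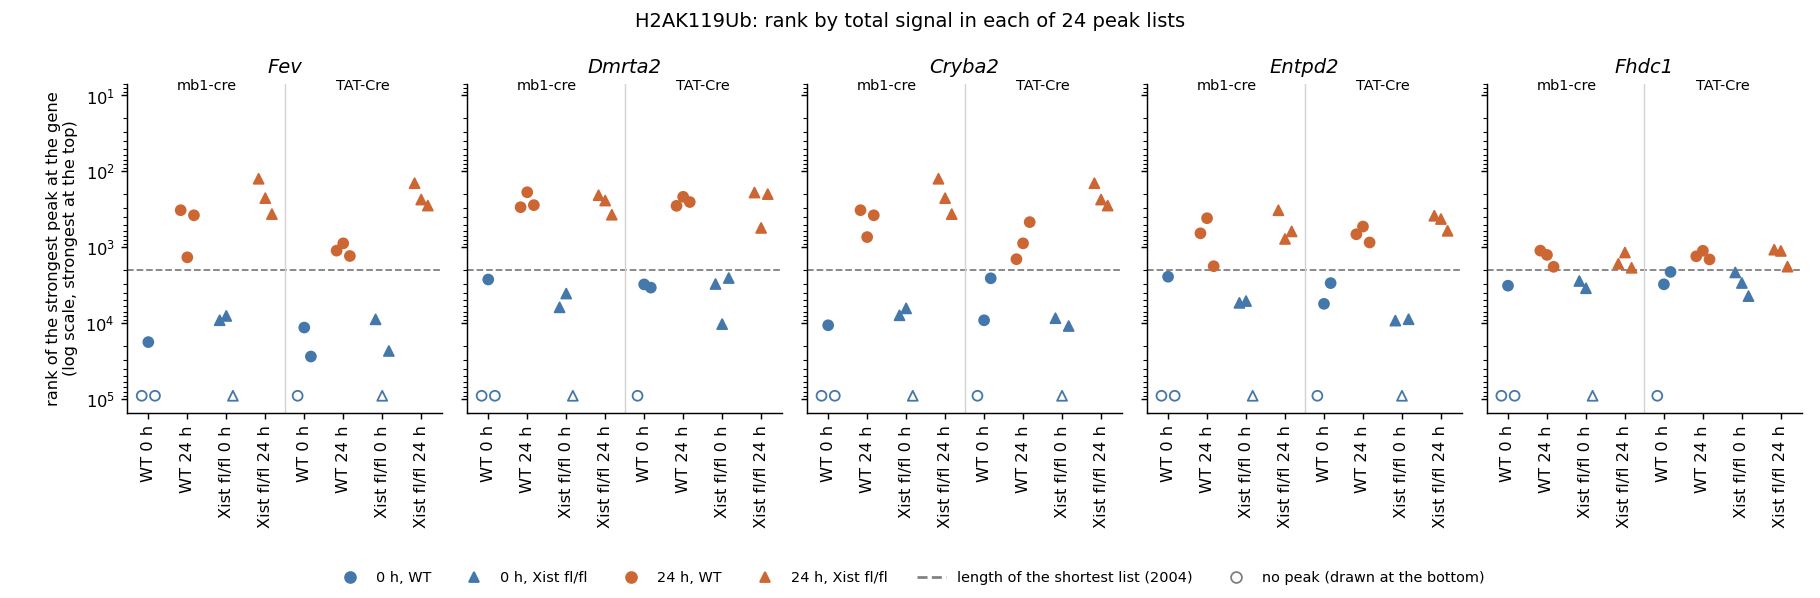
Rank of the strongest H2AK119Ub peak touching each gene (log scale, strongest at the top) in each of 24 lists, by system, genotype and time; open symbols at the bottom are lists with no peak and the dashed line is the length of the shortest list, 2004. All filled points of 24 h lie above the line and all points of 0 h below it, with the smallest gap at Fhdc1.

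Whether a gene had any H2AK119Ub peak at 0 h followed the length of the list. None of the 5 genes had a peak in the 4 lists under 3000 peaks, and 2 to 5 of them had one in each of the other 8 lists, which held 11839 to 40688 peaks. Within those 8 lists, Dmrta2 and Fhdc1 were marked in 8, and Fev, Cryba2 and Entpd2 in 7, all but TAT-Cre Xist fl/fl replicate 2. Presence in the deposited lists and strength within a list are therefore different statements. Strength by total signal separates the times at all 5 genes by the choice itself, and presence does not. The part of sequencing depth in these list lengths was not tested.

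Set against all genes, the pattern that defined the group was uncommon. Of 7913 genes with a peak in at least 1 trimmed H2AK119Ub list, 35 (0.442%) had one in 12 of 12 lists at 24 h and 0 of 12 at 0 h, and these include the 5 genes by construction. The opposite pattern, 0 of 12 at 24 h and 12 of 12 at 0 h, was held by 36 genes (0.455%). The exact test called 750 of 4305 genes (17.4%) more often marked at 24 h and 497 (11.5%) less often. Just outside the rule lay 55 genes marked in 11 of 12 lists at 24 h and 0 at 0 h, among them Cfap65, which adjoins Cryba2, and 18 genes marked in 12 of 12 and 1 of 12, among them Bcan and Lemd1. By contrast, 720 genes were marked in all 12 trimmed lists at both times.

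**Figure D2:**
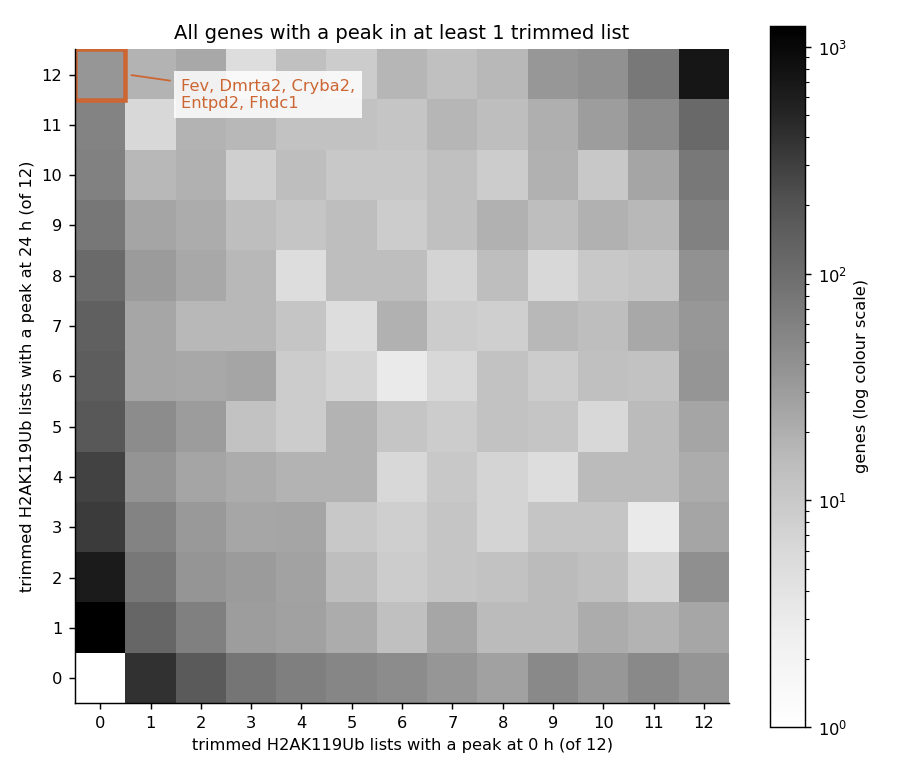
Number of genes (grey, log colour scale) by how many of the 12 trimmed H2AK119Ub lists hold a peak at 0 h (horizontal axis) and at 24 h (vertical axis). The outlined corner, 12 lists at 24 h and 0 at 0 h, holds 35 genes including the 5 described here, and the opposite top corner, 12 and 12, holds 720.

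Among the other 30 genes with this pattern were transcription factors of other tissues, such as Foxa1, Lmx1b, Mnx1, Nkx6-1, Nkx1-1 and Pitx1, named after their values were seen. H3K27me3 was strong at both times in most lists at 18 of these 30 (60.0%), and at all 5 of the genes described here, against 7.35% of all genes in the table. The share among the 1017 genes with strong H2AK119Ub in all 12 lists of 24 h was 77.97%, so a high share is not particular to this pattern. It was 85.69% of the 720 genes marked in 12 of 12 lists at both times. Just outside the rule it was 45.45% of the 55 genes marked in 11 and 0 lists, and 72.22% of the 18 marked in 12 and 1. These differences in share were not tested. Likewise 21 of the 30 (70.0%) had no H3K27ac peak in any list, against 65.58% of all genes. The group of 35 was chosen by its H2AK119Ub, and these shares are given as a description.

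The peaks at 24 h were broad, which is tied to the choice, since total signal grows with width. At Fev the strongest peak was 8.15 kb wide or more, with a median of 23.3 kb, and at Dmrta2 the median width was 20.7 kb. Entpd2 had a median width of 16.1 kb and Fhdc1 of 10.7 kb. In the median list of 24 h, peaks covered the whole of the gene and its 2 kb flanks at Fev, Dmrta2, Cryba2 and Entpd2, and 23.6% at Fhdc1, whose body is 38249 bp long. In the 8 long lists of 0 h, the same medians were 31.1% for Fev, 51.5% for Dmrta2, 39.7% for Cryba2, 44.0% for Entpd2 and 14.9% for Fhdc1. So at 0 h the marked bases were patches of the region that was covered at 24 h.

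The position of those patches differed between the genes. The start site of Fhdc1 was under an H2AK119Ub peak in 8 of 8 long lists at 0 h and in 12 of 12 at 24 h. At Fev the start site was covered in 2 of the 8 long lists at 0 h and in 11 of 12 at 24 h. The corresponding counts were 5 and 12 for Dmrta2, 5 and 12 for Cryba2 and 3 and 11 for Entpd2. Fhdc1 thus already had a peak over its start site in each long list of 0 h, and the other 4 genes had one in some of them.

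**Figure D3:**
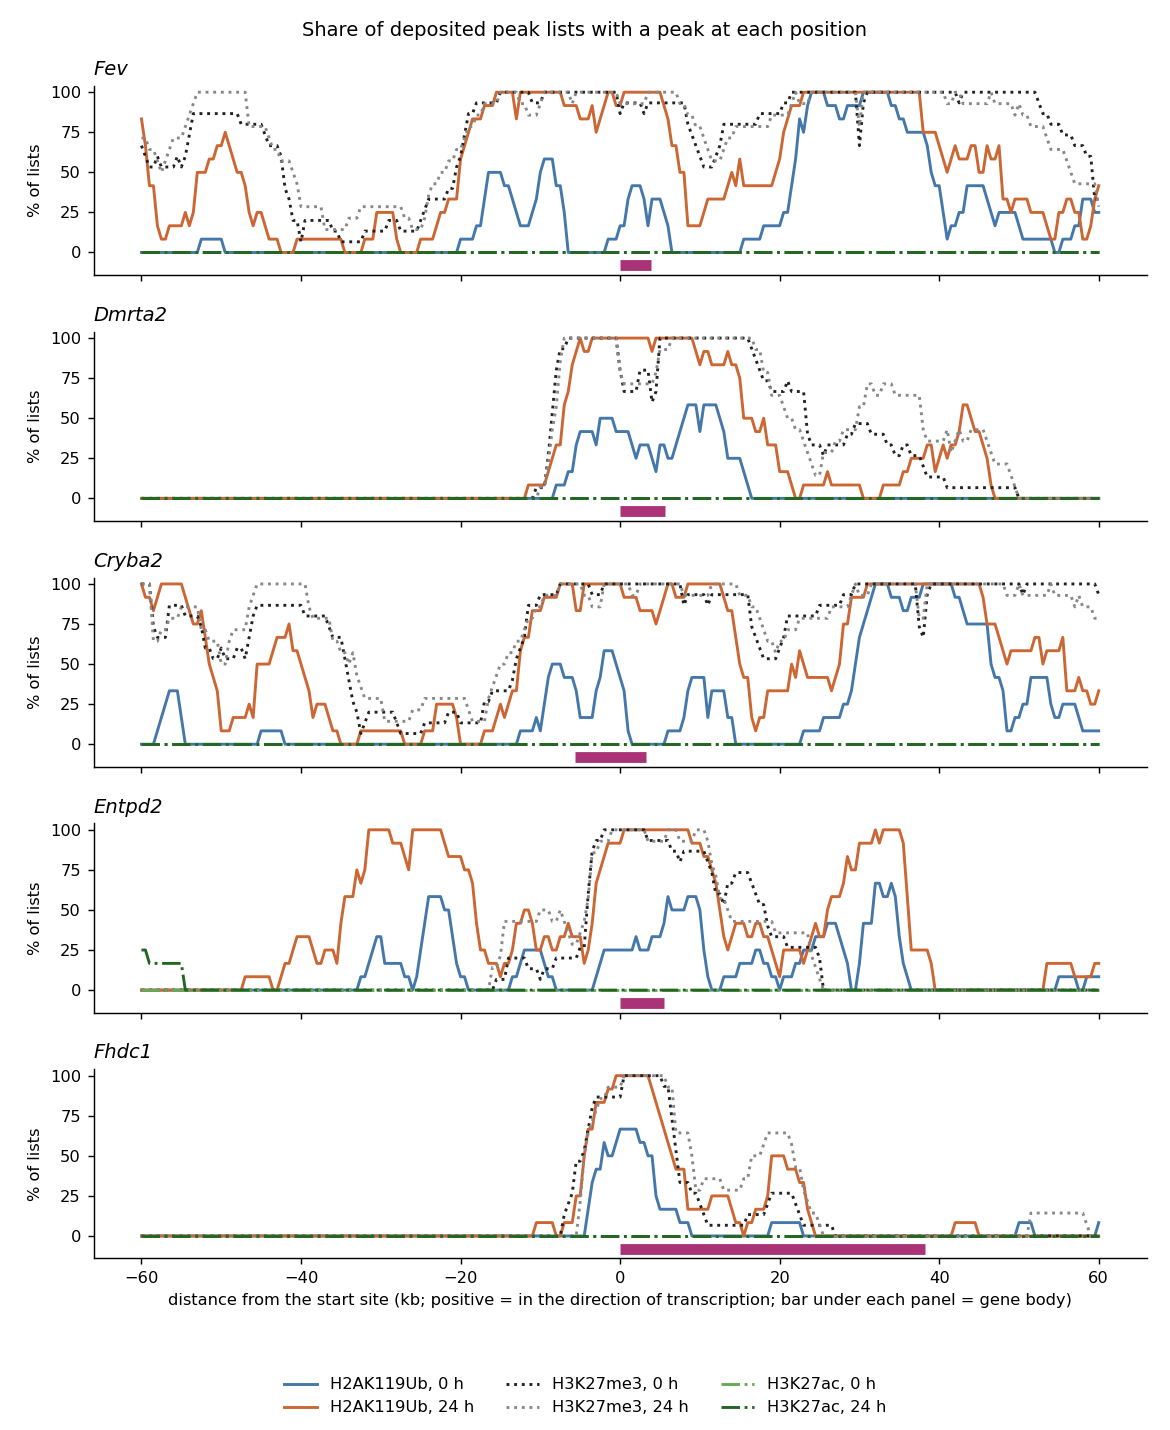
Share of deposited lists (percent) with a peak at each position from 60 kb upstream to 60 kb downstream of the start site of each gene, for 3 marks at 0 h and 24 h; the bar under each panel is the gene body. H2AK119Ub at 24 h reaches all 12 lists over each gene, H3K27me3 covers the same stretch at both times, and H3K27ac stays at 0 over the genes.

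The zone under H2AK119Ub in 50% or more of the 24 h lists ran from 20.0 kb upstream to 8.0 kb downstream of the Fev start, a stretch of 28.0 kb that takes in Cryba2. It ran from -7.0 to 16.5 kb around the start of Dmrta2, from -3.0 to 12.5 kb around that of Entpd2 and from -4.5 to 6.5 kb around that of Fhdc1. At Dmrta2 the zone also covered the overlapping long non-coding RNA Dmrta2os, whose body was touched by the strongest peak in 12 of 12 lists. At Entpd2 it ran on into Npdc1, 1.73 kb away, in 12 of 12 lists.

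Fev and Cryba2 lie on chromosome 1, 4.46 kb apart, and are transcribed in the same direction. A single H2AK119Ub peak touched both genes in 10 of 12 lists at 24 h and in 0 of 12 at 0 h, although 7 of the 0 h lists held a peak at each of them. A single H3K27me3 peak touched both in 15 of 15 lists at 0 h and 14 of 14 at 24 h. The 2 genes are thus 1 region for both marks at 24 h, and they do not count as independent observations.

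Cdk5r2, a neuronal activator of the kinase Cdk5 that lies 23.8 kb beyond Fev, had a different course and is named here after its values were seen. Its H2AK119Ub peak was strong in 12 of 12 lists at 0 h, at ranks from 529 to 1814, and in 12 of 12 at 24 h, at ranks from 142 to 496. No H2AK119Ub peak touched both Cdk5r2 and Fev in any of the 24 lists, whereas a single H3K27me3 peak did so in 8 of 15 lists at 0 h and 7 of 14 at 24 h. The Cdk5r2 side of this region was therefore strongly marked by H2AK119Ub at both times, and the Fev and Cryba2 side at 24 h alone. The long non-coding RNA Gm16582, whose body spans Cdk5r2 and ends 1.55 kb from Fev, was likewise marked in 12 of 12 trimmed lists at both times.

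Other neighbours differed too. Sapcd2, 17.7 kb upstream of Entpd2, had a deposited H2AK119Ub peak in 7 of 12 lists at 0 h and 12 of 12 at 24 h, and a strong one in 0 and 9. It had an H3K27me3 peak in only 1 of 15 and 2 of 14 lists, unlike Entpd2 itself. Arfip1, 15.7 kb from Fhdc1, had a deposited H2AK119Ub peak in 9 of 12 lists at 0 h and 11 of 12 at 24 h, and a strong one in 5 and 2. Its H3K27ac peak was deposited in 0 of 12 and 10 of 12 lists and strong in 0 and 2. Faf1, the neighbour of Dmrta2, had no strong H2AK119Ub peak at either time.

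H3K27me3 was in place at all 5 genes before stimulation. Each gene was touched by a deposited H3K27me3 peak in 15 of 15 lists at 0 h and 14 of 14 at 24 h. In the trimmed lists Dmrta2 and Cryba2 had a peak in all 29, Fev in 15 of 15 and 13 of 14, and Entpd2 and Fhdc1 in 14 of 15 and 14 of 14. With so few lists lacking a peak, 0 of 5 genes entered the exact test of presence, which called 16 of 3430 genes (0.466%) more often marked and 28 (0.816%) less often marked at 24 h. Ranks were compared instead.

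The H3K27me3 domain over Fev and Cryba2 was among the strongest of the mb1-cre lists. In WT the rank was 46, 39, 35 and 72 at 0 h and 14, 26, 22 and 47 at 24 h, the same peak serving both genes. In mb1-cre Xist fl/fl it was 230, 315, 49, 60 and 46 at 0 h, and 250, 30, 38 and 19 at 24 h. The TAT-Cre ranks were lower in the list, with 874, 85 and 337 at 0 h and 300, 132 and 159 at 24 h in WT. In TAT-Cre Xist fl/fl they were 262, 241 and 551 at 0 h, while at 24 h replicates 2 and 3 had 116 and 204 and replicate 1 had 2427 at Fev and 1755 at Cryba2. The peak had a median width of 79.2 kb at 0 h and 85.2 kb at 24 h among the mb1-cre lists, and of 20.7 and 25.8 kb among those of TAT-Cre.

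Dmrta2 moved up in the H3K27me3 lists of the mb1-cre system. Its ranks there were 315, 245, 307 and 317 in WT and 256, 273, 307, 269 and 369 in Xist fl/fl at 0 h. At 24 h they were 232, 196, 185 and 222 in WT and 223, 176, 219 and 162 in Xist fl/fl, and no value of 24 h overlapped those of 0 h. The share of all genes without overlap in these lists was not counted. With TAT-Cre, WT went from 586, 662 and 400 to 426, 125 and 151, and Xist fl/fl from 731, 483 and 410 to 447, 542 and 328, with overlap.

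Entpd2 and Fhdc1 sat lower in the H3K27me3 lists and overlapped between the times within each system. With mb1-cre, Entpd2 had ranks of 640 to 1143 at 0 h and 624 to 1326 at 24 h, with medians of 887 and 864.5. Its TAT-Cre ranks ran from 758 to 2304 at 0 h and from 446 to 1939 at 24 h, with medians of 1581 and 606.5. In TAT-Cre Xist fl/fl alone, Entpd2 did not overlap, with 917 to 1927 at 0 h and 446 to 605 at 24 h. The share of all genes without overlap there was not counted. Fhdc1 ranged from 988 to 2318 over the 15 lists of 0 h and from 458 to 1715 over the 14 of 24 h.

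**Figure D4:**
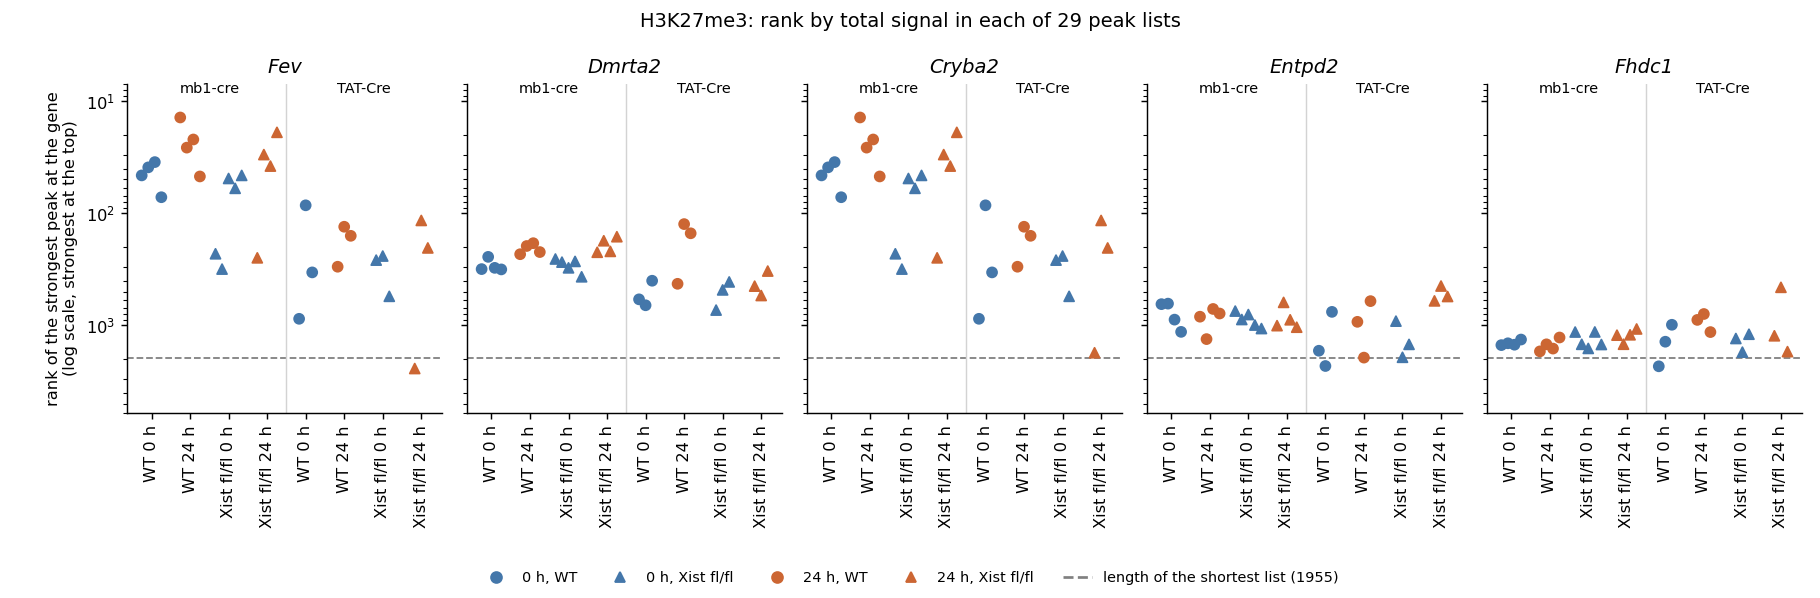
Rank of the strongest H3K27me3 peak touching each gene (log scale, strongest at the top) in each of 29 lists, by system, genotype and time; the dashed line is the length of the shortest list, 1955. Every gene has a peak in every list, and most groups overlap between times. The exceptions are Dmrta2 in the mb1-cre system, with ranks of 245 to 369 at 0 h and 162 to 232 at 24 h, and Entpd2 in TAT-Cre Xist fl/fl, with 917 to 1927 and 446 to 605. How many of all genes lack overlap in these lists was not counted.

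For a test, each rank was turned into a score, log2 of the length of the shortest list divided by the rank, set to 0 for a rank beyond that length, so that 1 unit is a 2-fold smaller rank number. In limma's moderated test over all genes, 1 of the 5 genes, Dmrta2, was called for H3K27me3, higher at 24 h by 0.68 ± 0.17 (SE, 29 libraries, adjusted p = 0.0201), where 3.19% of the 4886 genes tested were called higher and 2.31% lower. An exact two-sided permutation of libraries within system and genotype gave a difference of 0.70 ± 0.17 for Dmrta2 (p = 0.000115, 29 libraries, not adjusted). Within the systems it was 0.549 for mb1-cre (exact permutation p = 0.000113) and 0.856 for TAT-Cre (p = 0.05). The lists of the mb1-cre system were also longer at 24 h (7972 to 15150 peaks) than at 0 h (1955 to 7117), and the part of this in the ranks was not tested. On another scale, log2 of the signal as its share of all autosomal peak signal in ppm plus 1, Dmrta2 was 0.05 higher and was not called (limma, adjusted p = 0.841). With replicate numbers as blocks, Dmrta2 was not called on the score either (limma, adjusted p = 0.056). The call at Dmrta2 thus rests on its rank within the list and on libraries not being paired.

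The score of the other 4 genes did not pass the limma test. In limma the score at 24 h minus 0 h was 0.68 ± 0.43 (SE) for Fev (adjusted p = 0.391) and 0.69 ± 0.42 for Cryba2 (adjusted p = 0.38). It was 0.34 ± 0.21 for Entpd2 (limma, adjusted p = 0.376) and 0.24 ± 0.15 for Fhdc1 (limma, adjusted p = 0.388). The estimates at Fev and Cryba2 are as large as that at Dmrta2, with errors more than 2 times as wide. The exact permutation over all 29 libraries gave 0.62 for Fev (p = 0.198) and 0.63 for Cryba2 (p = 0.181). Without TAT-Cre Xist fl/fl 24 h replicate 1 it gave 0.92 for both (exact permutation p = 0.023, not adjusted). The share of the Fhdc1 window under H3K27me3 peaks was higher at 24 h by 10.02 percentage points (exact permutation p = 0.0263, not adjusted), with means of 27.8% at 0 h and 49.8% at 24 h for mb1-cre and of 26.1% and 23.5% for TAT-Cre. This share was taken from full deposited lists, which for mb1-cre held 1955 to 7117 peaks at 0 h and 7972 to 15150 at 24 h. The part of list length in it was not tested.

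Most of the H2AK119Ub of 24 h at each gene lay over the H3K27me3 that was there at 0 h. Of the bases of the strongest H2AK119Ub peak of 24 h, a median of 96.2% at Entpd2, 95.3% at Fhdc1 and 87.1% at Dmrta2, and all bases in the median list at Fev and Cryba2, lay under H3K27me3 peaks of 0 h in the same system and genotype. The lowest values were 62.8% at Fhdc1, 68.3% at Dmrta2, 76.2% at Entpd2 and 87.3% at Fev and Cryba2, so in some lists the peak ran past the H3K27me3. By another measure, the share of all strong H2AK119Ub peaks that touch a strong H3K27me3 peak was 66.8% to 76.4% at 0 h and 61.4% to 78.0% at 24 h.

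H3K27ac was not detected at any of the 5 genes. No H3K27ac peak touched Fev, Dmrta2, Cryba2, Entpd2 or Fhdc1 in any of the 12 lists of 0 h or the 12 of 24 h. None of the 5 therefore entered the exact test of presence, which called 14.8% of 1753 genes higher and 13.6% lower at 24 h. By genotype the exact test called 0 of 1508 genes for H3K27ac, 27 of them having p under 0.05 before adjustment, while 1 of 2571 was lower by limma (0.0389%). A list reports only peaks above its caller's limit, so weaker acetylation is not measured.

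The genotypes were compared in the H2AK119Ub ranks of 24 h. The choice of genes set a limit on these same ranks, one limit for both genotypes, and the rule names no genotype. How these 5 were taken from the 35 genes with the pattern was not given. The p-values below are therefore descriptive. At Fev the 6 WT libraries had ranks from 324 to 1353 with a median of 994.5, and the 6 Xist fl/fl libraries from 125 to 365 with a median of 230.0, with an overlap of the ranges between 324 and 365. The Fev score was higher in Xist fl/fl by 1.85 ± 0.43 (SE, exact permutation within system, p = 0.01, where 0.005 is the smallest possible). For Cryba2 the ranks were 324 to 1431 in WT and 125 to 365 in Xist fl/fl, and the score was higher by 1.51 ± 0.40 (exact permutation p = 0.01). Within the systems the difference was 1.338 (mb1-cre) and 2.355 (TAT-Cre) at Fev and 1.042 and 1.986 at Cryba2 (exact permutation p = 0.2 for mb1-cre and 0.1 for TAT-Cre at both genes, where 0.1 is the smallest that 3 against 3 libraries allow). These are the same peak in all 6 Xist fl/fl lists and in 3 of 6 WT lists. After adjustment over all genes in limma, neither passed (adjusted p = 0.921 for Fev and 0.978 for Cryba2). By limma 0 of the 5 genes were called, where 0.023% of 4345 genes were called higher and 0.0% lower. Before adjustment Fev and Cryba2 were under 0.05 in limma, and the share of all genes under 0.05 is not given here.

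**Figure D5:**
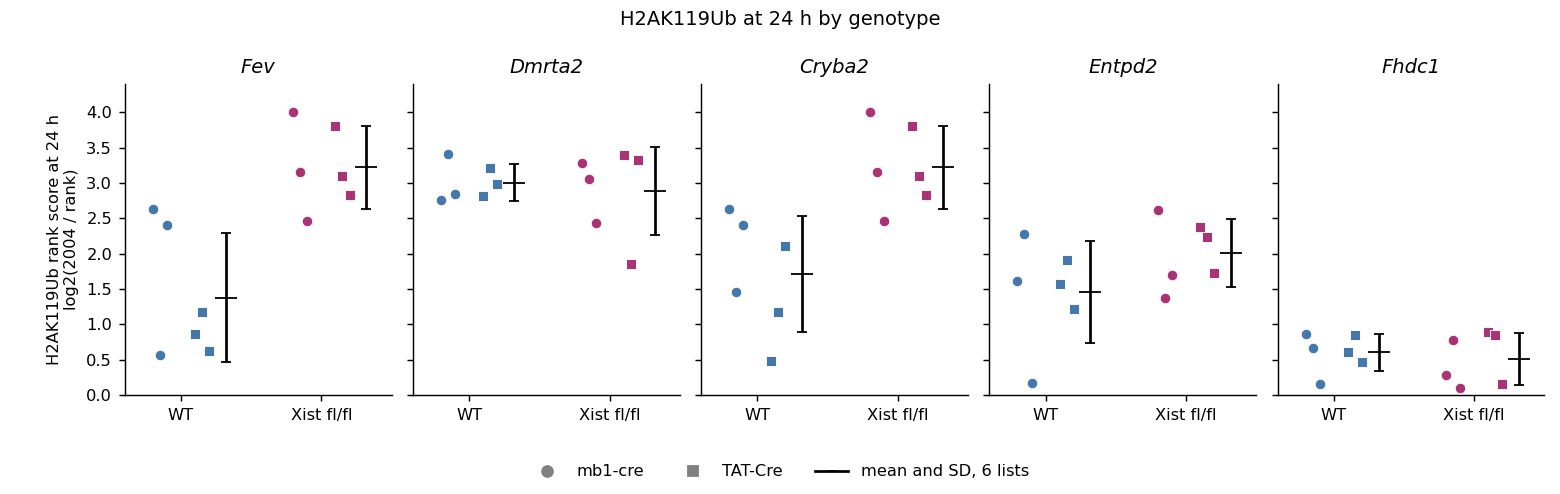
H2AK119Ub rank score at 24 h (log2 of 2004 divided by the rank) in each of 6 WT and 6 Xist fl/fl lists for each gene, with circles for mb1-cre and squares for TAT-Cre; bars give the mean and SD. Fev goes from 1.38 in WT to 3.22 in Xist fl/fl and Cryba2 from 1.71 to 3.22, while the genotypes overlap widely at Dmrta2, Entpd2 and Fhdc1.

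The difference at Fev and Cryba2 went with the width of the peak. The strongest peak at Fev had a median width of 11.1 kb in WT and 26.6 kb in Xist fl/fl, and that at Cryba2 15.9 and 26.6 kb. Ranked by highest signal in place of total signal, which does not grow with width, the difference at Fev was 0.21 (exact permutation p = 0.725) and at Cryba2 0.84 (p = 0.17). By the percentile of the rank in the full list, the peak stood higher in Xist fl/fl by 1.501 percentage points at Fev (exact permutation p = 0.045) and by 0.916 at Cryba2 (p = 0.17). The covered share of the window differed by -1.03 percentage points at Fev (exact permutation p = 0.88) and by 11.61 at Cryba2 (exact permutation p = 0.05).

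At the other 3 genes the genotypes were not told apart by this test. The score in Xist fl/fl minus WT was -0.12 ± 0.31 for Dmrta2 (exact permutation p = 0.73), 0.54 ± 0.39 for Entpd2 (p = 0.175) and -0.09 ± 0.20 for Fhdc1 (p = 0.615). Presence of a strong peak says nothing about genotype here, since it was required in all 24 h libraries and in none at 0 h. Over all genes, the exact test of presence by genotype called 0 of 3921 genes, 26 of them having p under 0.05 before adjustment, and 0 of 5129 passed in limma on the score.

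H3K27me3 ranks by genotype were compared in the 23 libraries given Cre, that is, without TAT-Cre 0 h. The score in Xist fl/fl minus WT was -1.01 ± 0.57 at Fev and -0.99 ± 0.55 at Cryba2 (exact permutation p = 0.071 for each), and the sign is opposite to that of H2AK119Ub. It was -0.33 ± 0.21 at Dmrta2 (p = 0.263), 0.28 ± 0.20 at Entpd2 (p = 0.261) and 0.10 ± 0.21 at Fhdc1 (p = 0.669, exact permutation for all 3). None of the 5 entered the exact test of presence, which called 4 of 3112 genes lower in Xist fl/fl (0.129%) and 0 higher. In limma 0 of 5 genes passed (adjusted p = 0.883 to 0.92), and the background was 0.0419% called higher and 0.0419% lower among 4778 genes. Fev and Cryba2 were under 0.05 before adjustment, and the share of all genes under 0.05 is not given here. At Fev and Cryba2 the low Xist fl/fl values came from mb1-cre replicates 1 and 2 at 0 h and replicate 1 at 24 h, with ranks of 230, 315 and 250, and from TAT-Cre replicate 1 at 24 h.

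None of the 5 genes was called for a different H3K27me3 response in the 2 systems by its rank score. The interaction of system and stimulation in limma had adjusted p-values from 0.29 (Entpd2, a response 0.94 larger with TAT-Cre) to 0.745 (Cryba2). For genotype, the interaction at Dmrta2 was -1.16, TAT-Cre minus mb1-cre (limma, adjusted p = 0.157). Across 24 libraries and 5353 genes, the genes farther than 50 kb whose H2AK119Ub score followed each member most closely were Gm30968 (Pearson r = 0.92) and Adgrg1 (r = 0.913) for Fev, Mecom (r = 0.907) and Gm30968 (r = 0.905) for Cryba2, and Myorg and 1110017D15Rik (r = 0.958 each) for Dmrta2. They were Prdm12 (r = 0.935) and Zfp593 (r = 0.903) for Entpd2, and Spats2 (r = 0.902) and Otop2 (r = 0.857) for Fhdc1. These correlations share the contrast of time that chose the genes and carry no test.

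Relatives of the 5 genes were counted by family against all genes, of which 17.4% were called higher and 11.5% lower for H2AK119Ub at 24 h. The share called rests on 1 to 6 tested genes a family, and no family was tested as a whole. Among 25 ETS genes other than Fev, 6 were tested for H2AK119Ub presence, 1 rose (Spib, a factor of B cells, in 10 of 12 trimmed lists at 24 h and 0 of 12 at 0 h, exact test, adjusted p = 0.00208, named after its values were seen) and 1 fell (Etv1, 4 and 12 of 12, adjusted p = 0.0112). Erg was marked in 12 of 12 trimmed lists at both times. The median difference of the tested genes was 4.16 percentage points in the ETS family, 33.3 in DMRT, 41.66 in crystallins, 41.67 in the nucleotide group and 25 in formins, against 25 over all genes tested. Spib had an H3K27ac peak in all 24 lists and no H3K27me3 peak in any, the reverse of Fev.

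Of 8 DMRT genes other than Dmrta2, 1 was tested and 0 passed, Dmrt2, with 4 of 12 trimmed lists at 24 h and 0 of 12 at 0 h (exact test, adjusted p = 0.184). Dmrt1 and Dmrt3 had strong H2AK119Ub in 12 of 12 lists at both times, and all of Dmrt1, Dmrt2 and Dmrt3 had strong H3K27me3 in 15 of 15 and 14 of 14 lists. Dmrta2 thus differs from Dmrt1 and Dmrt3 in strong H2AK119Ub at 0 h, a difference set by its choice, and not in strong H3K27me3. Dmrt2 was like Dmrta2 at 0 h, with a deposited H2AK119Ub peak in 8 of 12 lists and a strong one in 0 of 12. These comparisons were not tested.

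Of all 4305 genes tested, 17.4% rose and 11.5% fell, the shares to set beside each count in this paragraph. Among 15 crystallins, 4 were tested and 2 rose, the adjacent genes Cryba4 and Crybb1, each in 6 of 12 trimmed lists at 24 h and 0 at 0 h (exact test, adjusted p = 0.0365). Cryab, with 2 of 12 and 3 of 12, did not pass (exact test, adjusted p = 1.0). Neither Cryba4 nor Crybb1 had strong H3K27me3 in any list, and Crybb1 had a deposited H3K27ac peak in 12 of 12 lists at 24 h, strong in 7, unlike Cryba2. Of 15 genes of extracellular nucleotide breakdown and sensing, 3 were tested and 1 rose, Entpd4, in 7 of 12 trimmed lists at 24 h and 0 at 0 h (exact test, adjusted p = 0.0211), with no H3K27me3 peak in any deposited list. Of 14 formins, 4 were tested, with Inf2 rising (11 and 2 of 12, exact test, adjusted p = 0.0103) and Daam1 falling (1 and 12 of 12, exact test, adjusted p = 0.000992). Inf2 had a deposited H3K27ac peak in 12 of 12 lists at 24 h, strong in 0 of 12, and no H3K27me3 peak in any deposited list, whereas Fhdc1 had H3K27me3 peaks and no H3K27ac peak.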

How the data were processed

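CUT&RUN peak lists were analysed for H2AK119Ub (24 libraries, 1.5 µg antibody), H3K27me3 (29) and H3K27ac (24, 3 µg antibody for each of these marks), grouped by the labels into 24 groups. The deposited lists give each peak's total and highest signal as the authors made them. Per the submitters' processing notes, the tools were Trimmomatic 0.32, Bowtie2 2.3.4.1, Picard and deepTools 3.5.1 on mm10. The deposited lists are named for the peak caller SEACR with its norm and relaxed settings. The version, the control, any spike-in, the read depth and how signal was scaled between libraries were not given in the sources used here. Values were therefore compared as ranks within a list or as ppm of its autosomal peak signal, and depth could not set intervals.

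Of 883735 peaks, 99.38% were used. Lists were trimmed to the shortest list of the mark, and a peak touched a gene if it shared at least 1 bp with the RefSeq body (GRCm38.p6) extended by 2 kb. Presence was tested with an exact test stratified by system and genotype (stimulation) or by system and time (genotype, without TAT-Cre 0 h), leaving out genes marked, or unmarked, in fewer than 3 libraries, and p-values were adjusted over all genes by Benjamini-Hochberg (threshold 0.05). The 5 genes could not pass that filter for H3K27me3 or H3K27ac, so their H3K27me3 was tested by limma 3.58.1 (R 4.3.3) on the rank score, fitted over all genes, and by two-sided exact permutation of single values within strata. The scripts (Python 3.11.15) were tested on simulated data. No lists were identical. Same-numbered libraries deviated together (r above 0.1) in 15 of 38 pairs, so replicate numbers were not treated as pairs. The median r was 0.07 for these pairs and -0.03 for 88 pairs of different numbers, so weak pairing may remain.

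The members and gene lists were chosen with earlier results of these data known. Genes named are the 5 members, their nearest neighbours, genes touched by their peaks, the 2 genes most correlated with each, and up to 4 relatives per family with most H2AK119Ub peaks. For any other gene the text says that it was picked once its values were known. Alternatives were list length, ranking by highest signal, gene body alone, minimum overlap of 500 bp, no filter, limma on rank or ppm, a replicate block, each library left out, and replicate 5 at 24 h.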

Additional observations from a re-analysis of the deposited data

Results flagged for a closer look

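At Dmrta2, the H3K27me3 rank score of replicate 2 in mb1-cre WT at 0 h stood apart from the other libraries of its group, at 3.0 (rank 245) against 2.62 to 2.67. The H3K27me3 peak over Fev and Cryba2 was 138.45 kb wide in mb1-cre WT 24 h replicate 1, where it had rank 14, against 81.2 to 86.4 kb in the other libraries of the group. That is 1 peak counted at both genes. These 3 values came from 40 groups of gene, mark and measure that were examined for a library standing apart, where chance gives about 1 in 20.

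The H3K27me3 response of Entpd2 to stimulation, on the log2 scale of ppm plus 1, was 1.17 larger with TAT-Cre than with mb1-cre (limma interaction, adjusted p = 0.0136). On the rank score the same interaction was 0.94 and did not pass (limma, adjusted p = 0.29). In all, 45 interactions of the 5 genes were computed. TAT-Cre and CpG cannot be told apart at 24 h in that system.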

How the results depend on the processing

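Counts of genes called depended strongly on the setting. For H2AK119Ub stimulation (1247 genes called) they were 2046 in full deposited lists, 773 in lists trimmed to 50% of that length, 776 by highest signal, 2582 by limma on the rank score and 9344 by limma on ppm, and 1364 to 1493 with each library left out. For H3K27ac (499) they were 2481, 271, 1350 and 5039 (full, shorter, limma rank, limma ppm), and 496 to 593. For H3K27me3 (44) they were 0 in full lists (1206 at an unadjusted p under 0.05), 11 in shorter lists, 97 by highest signal, 21 with replicate 5 at 24 h, 269 by limma rank and 285 by limma ppm, and 28 (without mb1-cre Xist fl/fl 0 h replicate 4) to 50. For H3K27me3 genotype (4) they were 0 in full lists, shorter lists, by highest signal and with no filter, 2 for the gene body, 1 by limma ppm, and 0 to 7 with a library left out, being 0 without any of 20 libraries and 7 without TAT-Cre Xist fl/fl 24 h replicate 3. For H2AK119Ub genotype (0) they were 2 by limma ppm and 1 by limma at 24 h alone, and 0 with each library left out; for H3K27ac genotype (0), 1 by limma rank.

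With the replicate block, stimulation gave 828 genes for H2AK119Ub (limma rank 2497, ppm 9413), 0 for H3K27me3 (limma rank 151, ppm 14) and 313 for H3K27ac (limma rank 1313, ppm 4636), and H3K27me3 genotype gave 0 by the exact test and by both limma fits. Dmrta2 lost its H3K27me3 call in limma under the replicate block (adjusted p = 0.056). In the exact permutation Dmrta2 kept its direction with each library left out (0.62 to 0.84), and with TAT-Cre alone it was 0.86 (p = 0.05, exact permutation).

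Of 100 alternative values for single genes besides left-out libraries, 80 kept direction and side of the threshold. The direction reversed for Entpd2 H3K27me3 stimulation with mb1-cre alone (-0.056). By genotype it reversed for Dmrta2 H2AK119Ub by highest signal (0.186) and, with a library left out, over -0.251 to 0.136, and for Fhdc1 H2AK119Ub over -0.195 to 0.026. It reversed for H3K27me3 by genotype at Dmrta2 (0.058) and Entpd2 (-0.061) with mb1-cre alone, at Cryba2 by highest signal (0.028), and at Fhdc1 with TAT-Cre alone (-0.087) and over -0.09 to 0.227 with a library left out. None of these passed the test in the main setting. The H2AK119Ub difference by genotype at Fev was 1.52 to 2.04 with each library left out, 1.331 for the gene body (exact permutation p = 0.095), and 1.338 and 2.355 with mb1-cre or TAT-Cre alone, where 0.1 is the smallest p. For H3K27me3 stimulation, leaving out 1 library brought p under 0.05 at Fev and Cryba2 (0.923, without TAT-Cre Xist fl/fl 24 h replicate 1), Entpd2 (0.52 without TAT-Cre WT 0 h replicate 3, 0.529 without TAT-Cre WT 24 h replicate 2) and Fhdc1 (0.383, without TAT-Cre Xist fl/fl 24 h replicate 3). For H3K27me3 genotype at Fev and Cryba2, the same held without mb1-cre Xist fl/fl 24 h replicate 4 or TAT-Cre Xist fl/fl 24 h replicate 2, and with replicate 5 at 24 h (-1.099 and -1.082, exact permutation p = 0.0436). The cause of these changes was not tested.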
